A study of Mus musculus with 12 samples.

Results

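Corneal endothelium of mice that carry the Q455K change on both copies of Col8a2 was compared between a late and an early stage of disease. The 6 mutant libraries, 3 of each stage, were taken from a series of 12 libraries by their stage and genotype labels and were fitted on their own. Early mutants were at most 2 months old and late mutants at least 8 months old. Every mouse of both groups carried the Col8a2 change, so the comparison shows how mutant tissue differed with stage and not what the mutation did. The remaining 6 libraries came from wild-type mice of the same stages and are used beside the mutant values. Each group held 3 biological replicates, and the labels used here state neither the strain nor how many animals went into a library. All early libraries were labelled batch 1 and all late libraries batch 2, so in every value below the stage, the age and the batch cannot be told apart. In bulk tissue, fewer cells of a type and less RNA per cell cannot be told apart either.

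The corneal endothelium is a single layer of pump cells on the inner face of the cornea that keeps it clear by moving ions and water out of the stroma. It rests on Descemet membrane, a specialised basement membrane built from collagen VIII, collagen IV and laminins, and Col8a2 encodes a collagen VIII chain. In Fuchs endothelial corneal dystrophy, which Col8a2 changes of this kind cause at an early age, this layer loses cells while abnormal matrix collects on the membrane. Corneal endothelial cells normally rest outside the cell cycle, so lost cells are covered for mainly by the spreading of their neighbours.

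Early mutant libraries held 34818054 to 39431676 counts and late ones 27799494 to 29972262, so the stages did not overlap in depth (two-sided exact permutation p = 0.1, the smallest that 3 against 3 can give). At these depths 3 counts correspond to 0.0761 to 0.108 CPM (counts scaled to a common library total). Defining genes of the tissue were abundant in all 6 libraries: Slc4a11, the endothelial membrane transporter, ran from 3905 to 6221 CPM and Col8a2 from 811 to 1054 CPM early and from 802 to 1086 CPM late. Both Xist, at 79.6 to 148 CPM, and the Y-linked Ddx3y, at 10.4 to 22 CPM, were present in each of the 6. The late libraries were less alike than the early ones. Correlations of log2 CPM across genes were 0.968 to 0.975 between early libraries, 0.936 to 0.956 between late libraries and 0.946 to 0.960 between stages.

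Of 32761 genes in the table, 15607 were tested after removal of genes with low counts. No gene passed edgeR's quasi-likelihood test at an adjusted p of 0.05 (0.0% of those tested), the smallest adjusted p being 0.0549, for Ube2s. At an unadjusted p under 0.05 edgeR gave 2232 genes, 14.3% of those tested, of which 1366 (8.75%) were higher and 866 (5.55%) lower at the late stage. At an adjusted p under 0.1 it gave 251, 173 higher and 78 lower. On the same genes DESeq2's Wald test called 637 (4.08%), 410 higher (2.63%) and 227 lower (1.45%), and limma-voom called 173 (1.11%), 106 higher (0.679%) and 67 lower (0.429%). All 173 were among DESeq2's 637. Groups did not overlap for 3090 genes (19.8%), 1738 of them higher (11.1%) and 1352 lower (8.66%). Leaving out late mutant replicate 1 gave 12 edgeR calls, 7 higher and 5 lower, and leaving out early mutant replicate 1 gave 1. Differences named below are therefore given as measured values, in log2 CPM with the standard error (SE) of the edgeR fit, and their direction as higher or lower; each member's value is read against the shares of all genes just given.

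The direction of a difference varied with how abundant a gene was. Genes higher late at an unadjusted p under 0.05 had a median level of 1.76 CPM and a median length of 5048 bases, and genes lower late had 55.5 CPM and 2048 bases. Over all genes tested the medians were 8.62 CPM and 3620 bases. The median log2 difference was 0.02 over all genes, 0.61 in genes under 1 CPM, 0.26 from 1 to 5 CPM, 0.03 from 5 to 20 CPM, -0.12 from 20 to 100 CPM and -0.16 above. Genes higher at that p made up 19% of genes under 1 CPM and 15.7% of those from 1 to 5 CPM, but 1.36% of those above 100 CPM, where 18% were lower. The part of depth, batch and RNA composition in this slope was not tested. Where the median of a group of genes is given below, its range over 3 other scalings follows. These were DESeq2 size factors, and scaling factors fitted within bins of gene length or of abundance. Where leaving out a mutant library turned the sign of a median or moved it by over 1.5 times, the lowest or highest such value and its library follow.

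**Figure D1:**
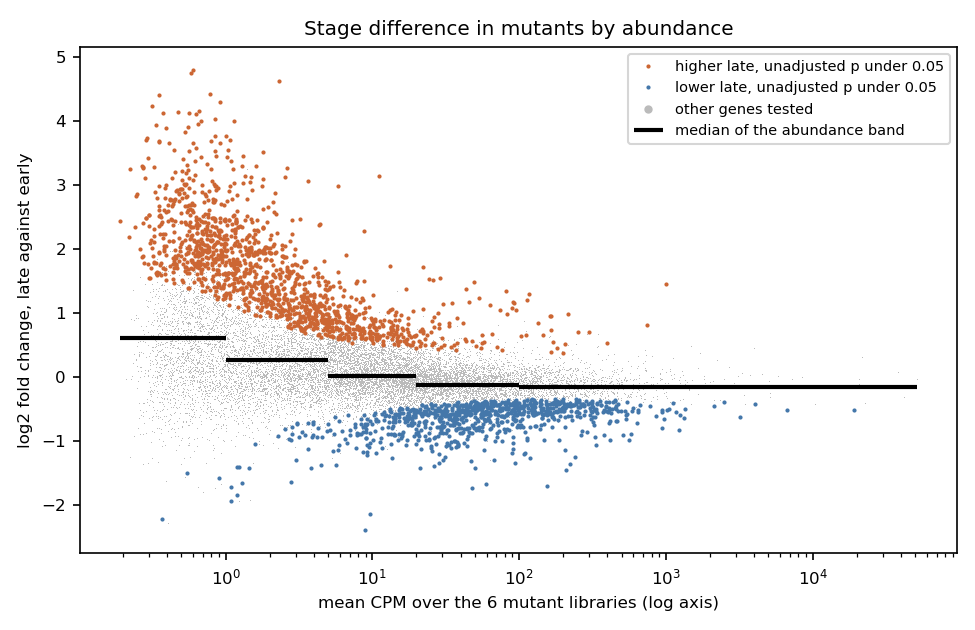
Each point is 1 of the 15607 genes tested, placed by its mean CPM over the 6 mutant libraries (log axis) and its log2 fold change of late against early. Orange points (higher late) gather at low abundance and blue points (lower late) at high abundance, and the black lines mark the medians of the bands, from 0.61 under 1 CPM to -0.16 above 100 CPM.

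The 24 genes that stood at the head of the comparison were the 12 with the smallest p in each direction, among those of at least 5 CPM in the higher group whose stages did not overlap. Col4a3, a collagen IV chain of Descemet membrane and of other specialised basement membranes, was the most abundant of the 24. It was at 512, 483 and 624 CPM in early replicates 1 to 3 and at 1856, 1280 and 1289 CPM in the late ones. That is a 2.73-fold higher level (log2 difference 1.45 ± 0.20, SE; edgeR adjusted p = 0.0676). Nav2, a neuron navigator protein that binds microtubules, was at 2.70, 3.31 and 3.06 CPM early and at 16.9, 16.7 and 10.4 CPM late, 4.85-fold higher (log2 2.28 ± 0.28; edgeR adjusted p = 0.0676). Both were separated between stages by more than the spread of either group. Ssr1, a subunit of the complex that helps proteins enter the endoplasmic reticulum, was at 52.6, 58.4 and 59.7 CPM early and at 151, 108 and 120 CPM late. Septin2, a filament protein, was 2.12-fold higher, and Efna5, an ephrin ligand that guides cell contacts, was 1.93-fold higher from a mean of 110 to one of 213 CPM. The other 7 had early means of 1.39 to 4.59 CPM. They were Usp37, a deubiquitinase (2.83-fold), Rap2b, a small GTPase (2.82-fold), the microtubule proteins Map6 (5.27-fold) and Dclk1 (3.52-fold), the myeloid transcription factor Irf8 (3.06-fold), the ergothioneine transporter Slc22a4 (2.80-fold) and the adhesion protein Igsf9b (2.65-fold). Under the other analyses tried each of these 12 had an adjusted p under 0.05 in 2 to 4 of 15, DESeq2's among them.

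Among the 12 lower genes, Ube2s, the enzyme that extends ubiquitin chains on targets of the anaphase-promoting complex, had the smallest p of all genes. It was at 95.3, 98.8 and 75.4 CPM early and at 30.0, 25.1 and 30.0 CPM late, 3.17-fold lower (log2 -1.66 ± 0.18; edgeR adjusted p = 0.0549), and passed the threshold in 5 of 15 other analyses. Otulin, which removes linear ubiquitin chains, was at 64.4, 70.1 and 67.5 CPM early and 33.1, 25.2 and 23.8 CPM late. Nnat, the imprinted neuronatin, was at 71.7, 71.8 and 74.1 CPM early and 32.5, 19.3 and 29.3 CPM late. The early libraries were nearly level for both genes and no late library reached them. Nrtn, which encodes the growth factor neurturin, was 4.39-fold lower, from a mean of 15.6 ± 5.9 (SD, n = 3) to 3.56 ± 0.14 CPM. Metrnl, a secreted factor, was 2.73-fold lower and Isoc1 3.24-fold lower, the latter at 140, 286 and 283 CPM early and 77.8, 65.3 and 76.1 CPM late. Gcat, of threonine breakdown, was 2.04-fold lower, the phosphatase Pptc7 2.53-fold lower and Hsd17b8, of mitochondrial fatty acid synthesis, 2.40-fold lower. Mpnd (2.53-fold), the lipid-binding chaperone Unc119 (2.30-fold) and the tubulin Tubb4a (2.08-fold) were the remaining ones.

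**Figure D2:**
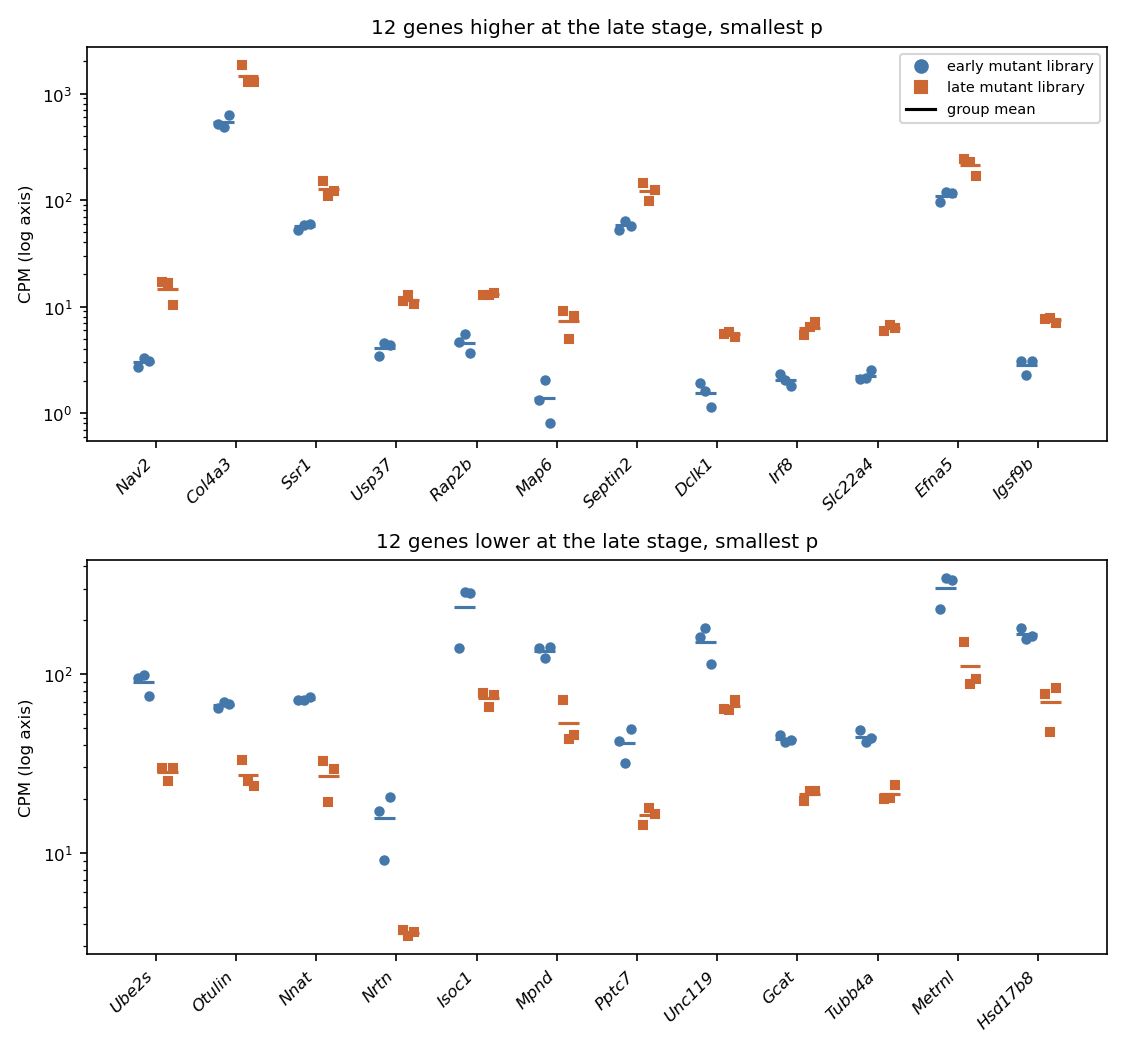
CPM (log axis) of the 12 genes with the smallest p in each direction, in the 3 early (blue circles) and 3 late (orange squares) mutant libraries, with bars at the group means. For every gene shown the 3 late points lie wholly above (upper panel) or below (lower panel) the 3 early ones, which the choice of genes required, and Col4a3 is the one gene past 1000 CPM.

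Transcripts of dividing cells were the group with the highest median difference among the lists of over 20 genes, from a very low level. Of 35 genes of DNA replication and mitosis, 34 passed the filter, and 17 (50%) were higher and 1 (2.94%) lower at an unadjusted p under 0.05. DESeq2 called 10 higher and 1 lower. Of all genes 8.75% were higher and 5.55% lower at that p. Under 1 CPM 19% were higher and 0.125% lower, and from 1 to 5 CPM 15.7% and 0.902%. The median log2 difference of the list was 1.31, from 0.95 to 1.29 over the other scalings, but 0.02 for the members that reached 5 CPM in 3 libraries. A scarce gene could pass the filter through the 3 libraries of 1 stage alone. The median and the counts of this list therefore depend in part on that entry. Of the 34 genes, 22 were also tested in wild type. Top2a, which untangles chromosomes, was at 0.600, 0.246 and 0.278 CPM early and at 3.61, 3.44 and 2.67 CPM late (log2 3.10 ± 0.50; edgeR adjusted p = 0.0676). Cdk1, the kinase that starts mitosis, was at 0.491, 0.983 and 0.0618 CPM early and 4.21, 4.65 and 4.81 CPM late. Ube2c, the enzyme that starts the ubiquitin chains of the anaphase-promoting complex, was at 1.25, 1.12 and 0.433 CPM early and 4.31, 3.56 and 3.92 CPM late. Cenpf, of the kinetochore, was at 0.491, 0.628 and 0.464 CPM early and 2.26, 1.92 and 2.34 CPM late. For these 4 genes every late library was above every early one, and the late libraries differed little among themselves. The marker of cycling cells Mki67 stayed below 2 CPM throughout, at 0.216 to 0.654 CPM early and 0.938 to 1.79 CPM late (edgeR adjusted p = 0.239). The 1 lower member, Stmn1, a tubulin-binding protein named here after its values were seen, was at 106 to 133 CPM early and 69.8 to 74.4 CPM late.

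Among genes that hold cells out of the cycle or let them in, Cdkn1c, Cdkn1a and Cdk6 were more abundant than Top2a, Cdk1, Ube2c and Cenpf. Cdkn1c, an imprinted inhibitor of the cycle, was at 229, 436 and 346 CPM early and at 137, 108 and 182 CPM late, 2.36-fold lower (log2 -1.24 ± 0.26; edgeR adjusted p = 0.0913). Cdk6, a kinase of the entry into the cycle, was at 23.3, 25.8 and 23.2 CPM early and 97.4, 56.1 and 35.3 CPM late. E2f3, a transcription factor of the same step, was at 2.10, 2.02 and 2.16 CPM early, and late replicate 2, at 12.3 CPM, stood far above the other late libraries at 2.92 and 4.28 CPM. In the list of 21 such genes, 19 were tested, 2 were higher and 1 lower at an unadjusted p under 0.05, and the median was 0.09 (0.05 to 0.09 over the other scalings, -0.09 without early replicate 3 and 0.28 without early replicate 2). The inhibitor Cdkn1a, a target of p53, was at 49.4, 133 and 37.2 CPM early and 69.4 to 89.2 CPM late, and its log2 difference of 0.11 had a 95% interval from -0.77 to 1.00. Early replicate 2 stood above the 5 other libraries.

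The promoters of the 4 mitotic genes are shown because those genes were higher together and because promoters of their class often carry CCAAT boxes and the cell cycle homology region, TTTGAA. The sequences are the 250 bases before the start site in RefSeq's mouse promoters, build GRCm38.p6, which is another build than the one the counts were made on. Capitals mark CCAAT and TTTGAA found on either strand, so that a match on the other strand reads ATTGG or TTCAAA. Top2a lies at chr11:99024190-99024439, minus strand, Cdk1 at chr10:69352913-69353162, minus strand, Ube2c at chr2:164769679-164769928, plus strand and Cenpf at chr1:189688087-189688336, minus strand.

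Top2a: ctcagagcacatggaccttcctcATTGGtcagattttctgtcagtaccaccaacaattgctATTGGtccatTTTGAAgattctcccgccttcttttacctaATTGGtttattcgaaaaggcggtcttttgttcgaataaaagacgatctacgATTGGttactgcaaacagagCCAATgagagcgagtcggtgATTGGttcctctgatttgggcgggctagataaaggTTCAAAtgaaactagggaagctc

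Cdk1: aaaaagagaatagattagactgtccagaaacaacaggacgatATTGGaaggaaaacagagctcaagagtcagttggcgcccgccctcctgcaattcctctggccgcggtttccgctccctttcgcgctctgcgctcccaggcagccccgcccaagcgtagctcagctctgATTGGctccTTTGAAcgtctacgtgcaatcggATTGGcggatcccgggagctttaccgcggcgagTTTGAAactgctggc

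Ube2c: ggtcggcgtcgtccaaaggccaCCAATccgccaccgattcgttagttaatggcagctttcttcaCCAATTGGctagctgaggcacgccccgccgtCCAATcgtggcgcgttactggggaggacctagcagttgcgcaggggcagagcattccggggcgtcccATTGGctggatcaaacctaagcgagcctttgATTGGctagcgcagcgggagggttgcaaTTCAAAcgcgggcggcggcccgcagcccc

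Cenpf: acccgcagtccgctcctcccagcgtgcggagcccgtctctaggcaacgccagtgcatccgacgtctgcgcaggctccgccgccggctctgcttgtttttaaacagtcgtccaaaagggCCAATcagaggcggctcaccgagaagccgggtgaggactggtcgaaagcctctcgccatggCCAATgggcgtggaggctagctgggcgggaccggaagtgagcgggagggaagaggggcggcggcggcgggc

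CCAAT occurred 6 times before Top2a, 3 times before Cdk1, 6 times before Ube2c, where 2 bases belong to both of a pair of overlapping matches, and 2 times before Cenpf. TTTGAA occurred 2 times before Top2a and Cdk1 each and 1 time before Ube2c. Of all 32851 promoters in the table, 33.8% held CCAAT and 16% TTTGAA in the same window. Promoters were listed for 28 of the 34 genes tested, of which 24 held CCAAT and 10 TTTGAA. A match describes letters and does not show that a factor binds there.

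Among matrix genes, Col4a3, Lamb1 and Lama2 were higher late. Of the collagen VIII chains, Col8a2 was at 947, 1054 and 811 CPM early and at 802, 1086 and 826 CPM late (log2 -0.05, 95% interval -0.46 to 0.36), and Col8a1 at 1006 to 2171 CPM early and 1290 to 1406 CPM late (log2 -0.21, interval -0.77 to 0.35). Of 30 basement membrane genes, 28 were tested, and 7 were higher and 0 lower at an unadjusted p under 0.05, with 5 called higher by DESeq2. The median was 0.003 (-0.03 to 0.15 over the other scalings, -0.18 without late replicate 2 and 0.16 without late replicate 1), with 14 members above 0. Lamb1 was at 7.69, 6.01 and 3.90 CPM early and 14, 15.9 and 13 CPM late. Lama2 was at 3.96 to 4.56 CPM early and 6.81 to 10.7 CPM late. The stages did not overlap for either chain. Tnc, tenascin-C, a matrix protein of wounds and remodelling tissue, was at 0.627, 0.464 and 0.618 CPM early and 2.50, 3.74 and 2.11 CPM late. Fibronectin, Fn1, was at 491 to 613 CPM early and 445 to 585 CPM late (log2 -0.13, interval -0.52 to 0.26). The fibrillar and interstitial collagens had a median of 0.41 (0.27 to 0.45 over the other scalings, and 0.16 without late replicate 2). Of these 18 genes 5 were higher and 1 lower at an unadjusted p under 0.05. Among them Col1a1 was at 54.8 to 120 CPM early and 93.1 to 129 CPM late, and Col5a3 at 1.04 to 1.45 CPM early and 2.27 to 6.54 CPM late, highest in late replicate 2.

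Among adhesion and mesenchymal genes, Cdh13, Cdh11, Cd44 and Acta2 were higher late and Cdh2 lower. Cdh13, a cadherin without a cytoplasmic tail, was at 0.873, 0.738 and 0.711 CPM early and 3.13, 3.62 and 4.38 CPM late, and Cdh11, the cadherin of mesenchyme, at 1.58 to 2.56 CPM early and 3.72 to 7.21 CPM late. N-cadherin, Cdh2, the main cadherin of this endothelium, was at 52.0 to 65.6 CPM early and lower, at 42.3 to 47.2 CPM, late. The hyaluronan receptor Cd44 was at 2.15, 4.64 and 1.70 CPM early and 8.06, 7.79 and 10.8 CPM late, 3.12-fold higher. Smooth muscle actin, Acta2, an abundant marker of contractile cells, was at 147, 182 and 175 CPM early and 273, 221 and 227 CPM late, 1.43-fold higher (edgeR adjusted p = 0.180). In the list of mesenchymal transition 7 of 27 tested genes were higher and 1 lower at an unadjusted p under 0.05, with a median of 0.09 (0.05 to 0.15 over the other scalings, 0.02 without early replicate 3 and 0.33 without early replicate 1).

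The beta subunit gene of the sodium pump, Atp1b1, was at 993, 1205 and 1337 CPM early and at 774, 773 and 708 CPM late, 1.57-fold lower (log2 -0.65 ± 0.17; edgeR adjusted p = 0.121), and the stages did not overlap. Slc4a11, whose loss causes endothelial dystrophy, was at 6133, 3968 and 5548 CPM early and 6221, 3905 and 4652 CPM late (log2 -0.08, interval -0.59 to 0.43). Car12, a carbonic anhydrase of the cell surface, was at 4.36, 4.53 and 3.74 CPM early and 10.6, 8.21 and 11.3 CPM late. Ano1, a calcium-activated chloride channel, was at 1.01, 0.929 and 1.02 CPM early and 4.28, 4.75 and 4.94 CPM late, 4.71-fold higher (edgeR adjusted p = 0.0676). Both were level within each stage. The potassium channel Kcnj13 was at 9.54, 6.53 and 3.22 CPM early and 2.47, 1.95 and 3.06 CPM late. In the transport list 29 of 34 genes were tested, 2 were higher and 6 lower at an unadjusted p under 0.05, and 8 had a log2 difference above 0, with a median of -0.11 (-0.18 to -0.12 over the other scalings, 0.01 without early replicate 1 and -0.28 without late replicate 3). Of 18 endothelial markers, 16 had a negative value and 1 was higher and 4 lower at that p, with a median of -0.27 (-0.32 to -0.18). The shares lower were thus 20.7% in the transport list and 22.2% among the markers. Of all genes above 100 CPM 18% were lower at that p and 21.7% had a value above 0. From 20 to 100 CPM 11.6% were lower. Ptgds, a prostaglandin D synthase also made by neighbouring tissues of the eye, was at 454, 283 and 218 CPM early and 71.5, 177 and 123 CPM late.

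Of 22 clock genes, all tested, 3 were higher and 7 lower at an unadjusted p under 0.05, with 1 and 4 called by DESeq2. The median was -0.17 (-0.25 to -0.15 over the other scalings, and -0.36 without late replicate 2). Dbp, an output gene of the clock, was at 84.0, 61.5 and 73.6 CPM early and at 15.9, 15.6 and 34.7 CPM late, 3.31-fold lower (log2 -1.73 ± 0.31; edgeR adjusted p = 0.0722). The repressors Nr1d1 and Nr1d2 were lower too, Nr1d1 at 107, 97.2 and 85.4 CPM early and 54.0, 20.8 and 42.9 CPM late, and Nr1d2 at 34.5 to 39.0 CPM early and 16.2 to 23.3 CPM late. Ciart, another repressor, was at 23, 19.6 and 16.2 CPM early and 10.8, 9.01 and 12.1 CPM late, and Per3 at 42.8 to 56.3 CPM early and 24.8 to 42.7 CPM late. No late library reached the early range for any of these 5. For Per3 the gap was narrow, 42.7 against 42.8 CPM (log2 -0.52, edgeR adjusted p = 0.334). Bmal1 and Npas2, the activating partners, and Rorb, an activator of Bmal1, were the 3 higher members and are named after their values were seen. Bmal1 was at 9.95 to 22.8 CPM early, and of the late libraries replicate 3 lay within that range and the others, at 29.7 and 32 CPM, above it. Npas2 was 2.70-fold higher and Rorb 3.39-fold higher, both from under 2 CPM. The labels do not state the hour at which eyes were taken, and its part in these values was not tested.

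The E-box CACGTG, which Bmal1 and its partner bind, was searched in the same 250-base windows of the 4 clock genes with the smallest p. It is held by 6.02% of all promoters and by those of 5 of 17 listed clock genes. It occurred 3 times before Ciart and not in these windows of Dbp, Nr1d1 or Nr1d2. The Ciart window, at chr3:95882229-95882478, minus strand, is shown with the E-boxes in capitals.

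Ciart: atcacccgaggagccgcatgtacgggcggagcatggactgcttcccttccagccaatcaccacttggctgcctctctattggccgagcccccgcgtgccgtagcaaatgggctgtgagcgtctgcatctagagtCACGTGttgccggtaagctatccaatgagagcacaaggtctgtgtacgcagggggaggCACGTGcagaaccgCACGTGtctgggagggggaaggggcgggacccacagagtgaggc

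**Figure D3:**
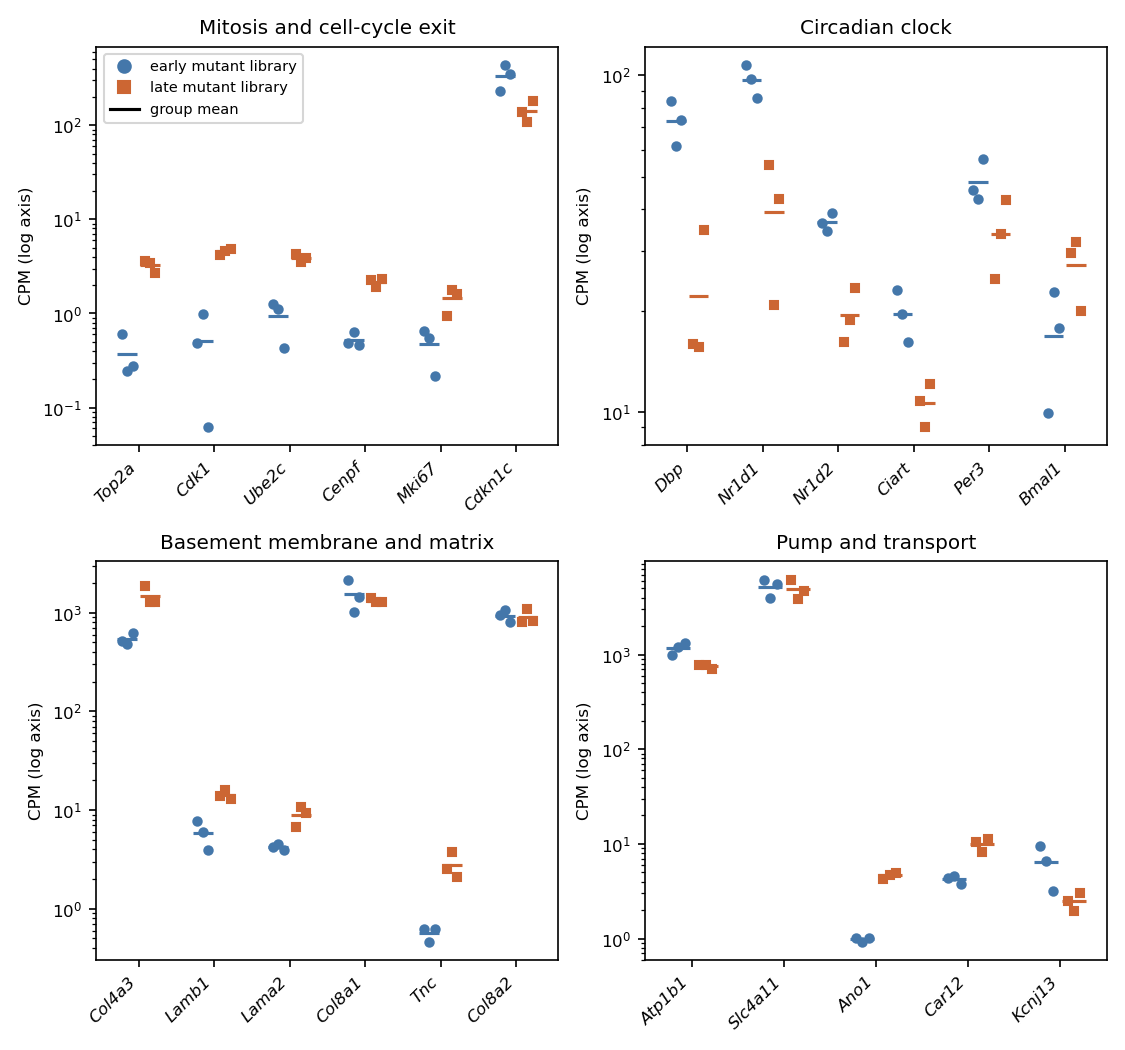
CPM (log axis) of 23 genes in 4 groups in the 3 early (blue circles) and 3 late (orange squares) mutant libraries, with bars at the group means. Top2a, Cdk1, Ube2c and Cenpf sit near or below 1 CPM early and between 1.92 and 4.81 CPM late, Dbp, Nr1d1, Nr1d2 and Ciart lie lower late, Col4a3 higher and Col8a2 level.

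Genes of energy supply and protein synthesis were set beside all genes above 100 CPM, of which 18% were lower at an unadjusted p under 0.05 and 21.7% had a value above 0. Of 69 nuclear genes of oxidative phosphorylation, 68 had a negative value and 17 (24.6%) were lower and 0 higher at that p. DESeq2 called 1 of them. The median was -0.26, and -0.29 to -0.08 over the other scalings, the smallest with scaling within bins of abundance. Sdhc, a subunit of complex II, was at 178, 168 and 178 CPM early and at 127, 114 and 109 CPM late, 1.5-fold lower. Ndufc2, of complex I, was at 176 to 244 CPM early and 120 to 142 CPM late, and the ATP synthase genes Atp5g3 and Atp5c1 were 1.47-fold and 1.38-fold lower. All 78 ribosomal protein genes tested, of 79, had a negative value, with 17 (21.8%) lower at that p, 2 called by DESeq2 and a median of -0.27 (-0.30 to -0.06, -0.46 without late replicate 2 and -0.17 without early replicate 1). In both lists the share lower was near that of all genes above 100 CPM. Rps7 was at 208, 206 and 208 CPM early and 124, 145 and 137 CPM late. Rps6, Rpl11 and Rpl24 were 1.44-fold, 1.52-fold and 1.40-fold lower. Transcripts of the mitochondrial genome had a median of -0.43 (-0.46 to -0.23), with 12 of 13 negative and 4 lower at that p. COX3 was at 85.9, 85.6 and 99.1 CPM early and 43.3, 51.4 and 66.7 CPM late, COX2 was 1.57-fold lower, and the abundant ND1 was at 4404 to 4956 CPM early and 3123 to 4070 CPM late. Their share of all counts overlapped between stages, at 2.05% to 2.78% early and 1.92% to 2.64% late (two-sided exact permutation p = 0.6).

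Of 33 genes of hypoxia and glycolysis, 31 had a negative value, and 10 (30.3%) were lower and 1 higher at an unadjusted p under 0.05. The median was -0.26 (-0.28 to -0.14 over the other scalings, -0.395 without early replicate 3 and -0.15 without early replicate 1). Of all genes 5.55% were lower at that p, of those above 100 CPM 18% and of those from 20 to 100 CPM 11.6%. Values above 0 made up 21.7% above 100 CPM and 30.5% from 20 to 100 CPM. Hif1a, the regulator of the hypoxia response, was at 610, 410 and 513 CPM early and 278, 259 and 396 CPM late, 1.64-fold lower. The glycolytic enzyme Pfkl was at 336 to 458 CPM early and 178 to 295 CPM late, Pfkfb3, which makes its activator, was 1.76-fold lower and Aldoc 1.42-fold lower. Of 40 antioxidant genes tested, 10 (25%) were lower and 0 higher at that p, 4 of them called by DESeq2. The median was -0.15, but -0.06 with scaling within bins of length and 0.01 with scaling within bins of abundance, so the list's direction depended on scaling. It was -0.23 without late replicate 1 and -0.10 without early replicate 1. The members with the smallest p were lower in each late library. Gstm1, a glutathione transferase, was at 1363, 1601 and 1746 CPM early and 954, 796 and 915 CPM late, 1.77-fold lower (edgeR adjusted p = 0.0875). Its close relative Gstm2, with which it may share reads, was 1.60-fold lower. The peroxiredoxin Prdx5 was at 1561 to 1645 CPM early and 892 to 1122 CPM late, and thioredoxin, Txn1, at 215 to 218 CPM early and 143 to 151 CPM late. Metallothionein Mt1, an abundant metal buffer, was 1.37-fold lower. Hmox1, the stress-induced haem oxygenase, was at 28 to 41.6 CPM early and 29.4 to 33.1 CPM late (log2 -0.05, interval -0.51 to 0.40).

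Markers of the unfolded protein response, which is discussed as a path of cell loss in this disease, were level between stages within wide limits. Hspa5, the chaperone BiP, was at 583, 519 and 542 CPM early and 572, 438 and 560 CPM late (log2 -0.07, interval -0.43 to 0.30). Ddit3, the death-linked factor CHOP, was at 86.1 to 121 CPM early and 91.4 to 102 CPM late (log2 -0.06, interval -0.44 to 0.32). Of the 32 genes of this response, 1 was higher at an unadjusted p under 0.05 and 0 lower, with a median of 0.004 (-0.02 to 0.17 over the other scalings, -0.08 without late replicate 1 and 0.08 without late replicate 2). The 1 gene, Canx, the lectin chaperone calnexin, was at 178, 199 and 199 CPM early and 347, 304 and 288 CPM late, 1.63-fold higher (edgeR adjusted p = 0.0915). In the integrated stress response 2 of 28 genes were higher and 1 lower, and the mitochondrial folate enzyme Aldh1l2 was at 0.273, 0.164 and 0.216 CPM early and 1.49, 4.32 and 1.42 CPM late. The median of that list was -0.03 (-0.06 to 0.06 over the other scalings, -0.14 without early replicate 2 and 0.08 without early replicate 1). The lists of p53 and senescence (median 0.11, 0.08 to 0.18), apoptosis (0.09, 0.07 to 0.17) and the heat shock response (-0.07, -0.10 to -0.005) each had at most 2 genes in a direction at that p. When a library was left out, the median of the p53 list ran from -0.03 without late replicate 1 to 0.20 without early replicate 2. That of apoptosis ran from 0.05 without early replicate 3 to 0.15 without late replicate 3, and that of heat shock from -0.16 without early replicate 3 to -0.0095 without late replicate 2.

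**Figure D4:**
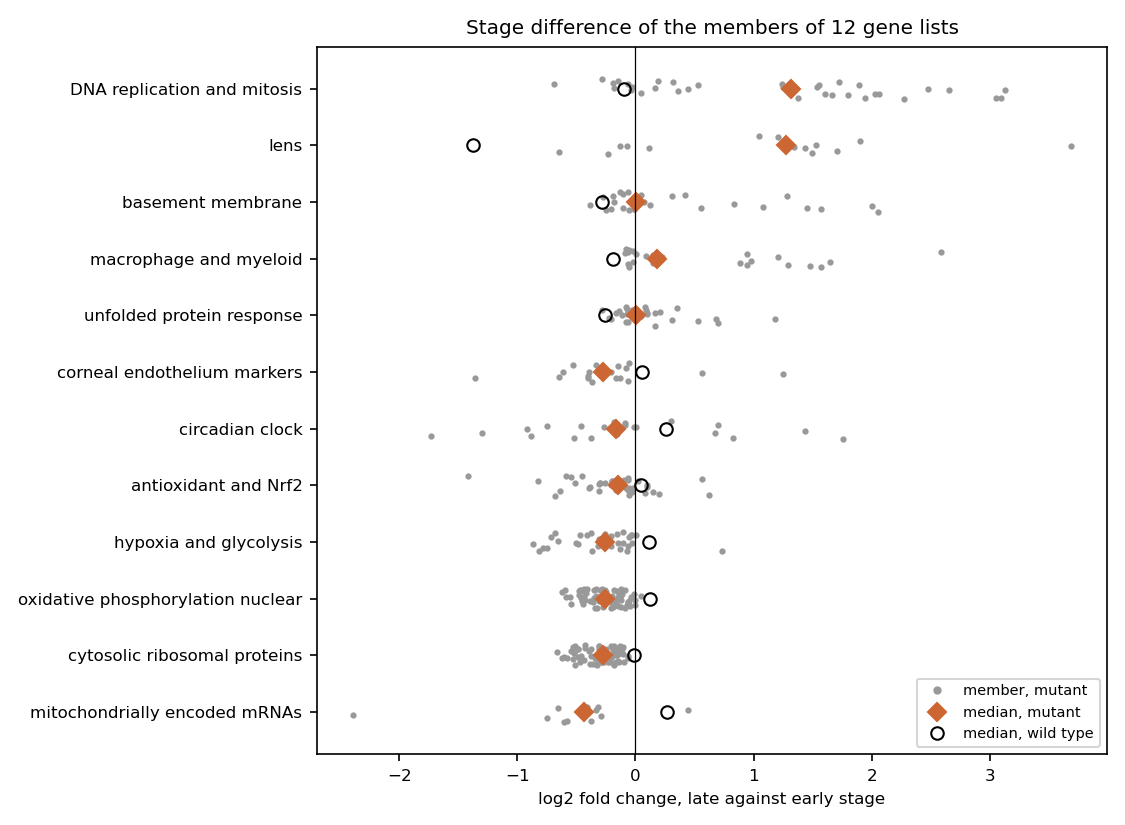
Log2 fold change of late against early (horizontal axis) for the tested members of 12 gene lists in mutants (grey points), with the mutant median (orange diamond) and the wild-type median (open circle). Mitosis, with a mutant median of 1.31, and lens genes, with one of 1.28, stand to the right, and oxidative phosphorylation, ribosomal and mitochondrial genes lie almost wholly left of 0.

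Some genes of macrophages were higher late and others were not. Itgam, an integrin of myeloid cells, was at 0.545, 0.601 and 0.680 CPM early and 1.60, 4.93 and 4.48 CPM late. Csf1r, the receptor of the macrophage growth factor, was at 5.62, 3.52 and 3.09 CPM early and 8.69, 12.3 and 13.1 CPM late, 2.78-fold higher (edgeR adjusted p = 0.0913), and Adgre1, which encodes F4/80, was at 1.08 to 1.83 CPM early and 3.99 to 4.64 CPM late. With Irf8 these 4 myeloid genes did not overlap between stages. Of 24 myeloid genes tested, 5 (20.8%) were higher and 0 lower at an unadjusted p under 0.05, with 3 called by DESeq2. Of all genes 8.75% were higher at that p, of those from 1 to 5 CPM 15.7% and of those from 5 to 20 CPM 5.47%. The myeloid median was 0.18 (0.15 to 0.29 over the other scalings, -0.19 without early replicate 3 and 0.57 without early replicate 2). The summed level of the myeloid list was 348 to 741 CPM early and 523 to 634 CPM late, so the early range held the late one. Summed levels were tested for 53 lists, where the smallest two-sided exact permutation p possible was 0.1. Lists of nuclear oxidative phosphorylation, antioxidant, clock, TGF-beta and BMP, and neural crest genes reached it with lower late sums. So did those of glucocorticoid targets, cholesterol and fatty acid synthesis, and histones. Summed levels of 2 immune lists did not overlap between stages and were higher late: neutrophil and mast cell genes, 7 of 21 tested, summed to 14.3 to 15.9 CPM early and 20.9 to 23.1 CPM late, and B and plasma cell genes, 4 of 11 tested, to 5.79 to 7.02 CPM early and 8.56 to 11 CPM late (two-sided exact permutation p = 0.1 for each). In each of these 2 immune lists 2 genes were higher and 0 lower at an unadjusted p under 0.05, and 4 genes of the neutrophil and mast cell list had no count in any of the 6 libraries. The part of such cells in the results was not tested. The complement gene C1qa was at 36.3, 12.1 and 5.01 CPM early and 18.6, 17.3 and 23.3 CPM late, and the class II chain gene Cd74 at 148, 70.0 and 54.8 CPM early and 75.1, 98.0 and 83.9 CPM late. For both, early replicate 1 was the highest of all 6, and the 95% intervals of their log2 differences ran from -1.07 to 1.37 and from -0.81 to 0.63. H2-DMb2, of class II loading, was higher from 0.402 to 0.518 CPM early to 1.32 to 2.09 CPM late. The acute phase genes Saa1 and Saa2, near-identical copies that may share reads, were nearly off early. Saa2 was at 0.164, 0.273 and 0.0927 CPM early and at 1.22, 3.89 and 8.33 CPM late, and late replicate 3 was the highest for Saa1 too, at 6.35 CPM against 0.904 and 2.74 CPM. The interferon-induced Gbp3 was at 2.41 to 3.19 CPM early and 4.45 to 10.8 CPM late. Of 18 tested genes of class I presentation and the immunoproteasome, 1 was higher and 4 lower, among them Psmb8 (1.62-fold) and Psme1 (1.44-fold). The median of that list was -0.09 (-0.11 to 0.09 over the other scalings, and -0.15 without late replicate 1). The cytokine gene Il18 was 1.49-fold lower and the interferon-induced Ifi27 1.43-fold lower. Among 39 interferon-stimulated genes 5 were higher and 3 lower, with a median of -0.02 (-0.06 to 0.09 over the other scalings, -0.09 without late replicate 2 and 0.12 without late replicate 1).

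Markers of other tissues in the eye differed between stages in some lists. Lens genes, of which 14 of 25 passed the filter, had a median of 1.28 (1.15 to 1.46 over the other scalings), with 9 higher at an unadjusted p under 0.05 and 6 called by DESeq2. Cryaa, a crystallin of the lens, was at 59.4, 83.5 and 42.8 CPM early and 98.7, 145 and 139 CPM late, and Crybb2 at 45.9, 67.1 and 25.2 CPM early and 99.3, 126 and 125 CPM late. Cryba4 was 2.70-fold higher. The list's summed level was 2023 to 2627 CPM early and 2133 to 2584 CPM late, and 3 lens genes had no count in any of the 6 libraries. Some skeletal muscle genes were high in late replicates 2 and 3. Acta1 was at 0.954, 1.64 and 1.36 CPM early and 1.88, 9.16 and 20.3 CPM late, Myh2 at 0.109 to 1.04 CPM early and 1.91, 4.41 and 7.90 CPM late, and Atp2a1 at 1.61 to 2.35 CPM early and 3.20, 6.42 and 12.4 CPM late. Late replicate 1 was close to the early libraries for Acta1, so these values rest on the other 2. Of 21 muscle and pericyte genes tested, 12 had a value above 0. At that p 33.3% were higher and 4.76% lower, against 8.75% and 5.55% of all genes. The median of this list was 0.08 (-0.06 to 0.24 over the other scalings), but -0.03 for the members that reached 5 CPM in 3 libraries. It was -0.27 without late replicate 3 and 1.345 without early replicate 2. Of 28 retinal genes tested, 1 was higher and 1 lower at that p and 9 had a value above 0, and of 16 pigment cell genes 0 were higher, 1 was lower and 3 had a value above 0. The retinal median was -0.19 (-0.22 to -0.13 over the other scalings, -0.45 without late replicate 3 and 0.16 without late replicate 1). The pigment cell median was -0.34 (-0.64 to -0.36, -0.57 without early replicate 3 and 0.005 without early replicate 1). Mlana, of pigment cells, was at 12 to 37 CPM early and 7.51 to 17.5 CPM late, and Glul, also made by glia, stood out in early replicate 2, at 1306 CPM against 353 to 491 CPM in the others. The vascular list had 7 genes higher and 2 lower of 17. Its median was 1.09 (0.56 to 1.05 over the other scalings), but -0.24 for the members that reached 5 CPM in 3 libraries. Egfl7 and Erg, abundant members of that list, were 1.63-fold and 1.43-fold lower, and Flt4, of lymphatic vessels, was at 0.109 to 0.382 CPM early and 1.15 to 2.53 CPM late. Summed levels overlapped between stages for muscle (1571 to 1702 CPM early, 1118 to 1578 CPM late), for vessels (169 to 201 and 137 to 181 CPM) and for keratocytes (23656 to 26857 and 22932 to 33851 CPM). The part of carried-over tissue in any result above was not tested.

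Among signalling genes, the Wnt list had 4 of 36 (11.1%) higher and 2 lower at an unadjusted p under 0.05, beside 8.75% higher among all genes and 15.7% among those of 1 to 5 CPM. Its median was -0.015 (-0.045 to -0.015 over the other scalings, and -0.15 without late replicate 2). Rspo2, an enhancer of Wnt signalling, was at 0.136, 0.219 and 0.124 CPM early and 1.01, 1.98 and 2.73 CPM late. Its receptor Lgr6 was 3.61-fold higher, from 0.817 ± 0.20 to 2.96 ± 0.66 CPM (SD, n = 3), and the Wnt receptor Fzd1 was at 6.98, 4.53 and 3.71 CPM early and 11.4, 13.5 and 11.1 CPM late. In the TGF-beta and BMP list, where 4 of 26 were higher and 2 lower, Skil, a brake on SMAD signalling, was at 13.5, 13.3 and 17.5 CPM early and 75.6, 20.4 and 33.7 CPM late. The median of that list was -0.04 (-0.07 to -0.04 over the other scalings, -0.17 without late replicate 1 and 0.02 without late replicate 3). Id2, a target of BMP signalling, was at 182, 136 and 211 CPM early and 105, 86.7 and 123 CPM late. Eya2, of the neural crest from which this layer comes, was 1.81-fold lower, and the imprinted gene Peg3 1.53-fold lower. The receptor Pdgfra was 3.14-fold higher, and Cyp26b1, which breaks down retinoic acid, was at 0.587 to 0.818 CPM early and 2.40 to 2.89 CPM late. For these genes no late library fell into the early range.

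Among the wild-type libraries early replicate 2 stood apart, with 19722598 counts and 31527 genes with a count, against 27723176 to 39431676 counts and 19317 to 23208 such genes in the other 11 libraries, so values without it are given too. In wild-type mice of the same stages and batches, edgeR called 0 of 16058 genes (0.0%; at an unadjusted p under 0.05 it gave 256 or 1.59%, 168 higher or 1.05% and 88 lower or 0.548%), and DESeq2 and limma-voom called 0 as well. Without that library edgeR called 0 and gave 274 at an unadjusted p under 0.05. Without late wild-type replicate 1 it called 0 too, but gave 1590 of 17508 genes at that p. The biological coefficient of variation was 0.484 in wild type, 0.534 without early replicate 2, and 0.324 in mutants. The sign of the stage difference was mostly the opposite of that in mutants. Col4a3 had a log2 difference of -0.60 ± 0.46 in wild type, Nav2 of -1.20 ± 0.59, Ube2s of 0.97 ± 0.53, Dbp of 1.23 ± 0.57, Atp1b1 of 0.65 ± 0.34 and Cryaa of -1.85 ± 0.47 (SE). Without early replicate 2 the same genes were at -0.81 ± 0.53, -0.52 ± 0.71, 0.95 ± 0.67, 0.74 ± 0.51, 0.71 ± 0.46 and -0.99 ± 0.42, all of the same sign. Without late replicate 1 they were at -1.43 ± 0.40, -1.43 ± 0.65, 1.38 ± 0.42, 1.34 ± 0.69, 0.84 ± 0.28 and -1.77 ± 0.53. Of the 1905 genes with an unadjusted p under 0.05 in mutants and a wild-type value, 1798 (94.4%) had the opposite sign in wild type, against 69.2% of all genes tested in both. Without early replicate 2 these shares were 83.4% and 61%. Across 9466 genes of at least 5 CPM, the stage differences of the 2 genotypes had a Pearson correlation of -0.64, although they share no library; genes are not independent replicates. It was -0.56 without early wild-type replicate 2, and -0.60 to -0.47 when each wild-type library was left out in turn. The mean of both differences had an SD of 0.14 over those genes, and their half-difference one of 0.29, or 0.16 and 0.30 without early wild-type replicate 2. Without late wild-type replicate 1 these SDs were 0.21 and 0.38. The stage differences in mutants are thus set beside wild-type differences of the other sign, and the labels do not state whether the counts were adjusted between batches. The part of such a step was not tested.

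**Figure D5:**
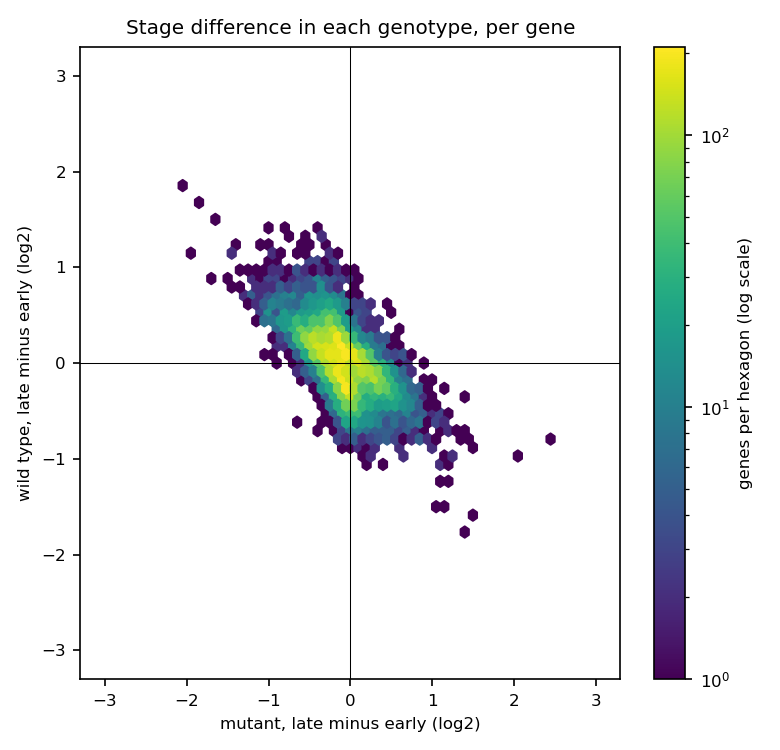
Each hexagon counts genes (log colour scale) by their difference of mean log2(CPM + 0.5), late minus early, in mutants (horizontal) and in wild type (vertical), for the 9466 genes of at least 5 CPM. The cloud runs from upper left to lower right, with a Pearson correlation of -0.64.

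The difference of the stage differences was tested in all 12 libraries together. It passed edgeR's test for 1 of 17965 genes (0.00557%), Isoc1, and 2013 genes (11.2%) had an unadjusted p under 0.05. Higher here means a stage difference in mutants above that in wild type, and lower one below it. Of 34 mitosis genes tested in mutants, 14 were higher and 2 lower at that p. Of 14 lens genes 9 were higher, and of 28 basement membrane genes 5. Of 69 nuclear oxidative phosphorylation genes 7 were lower, and of 78 ribosomal genes 9. Of 22 clock genes 5 were lower and 1 higher. Of all genes 6.12% were higher and 5.08% lower, and shares by abundance were not worked out for this test. Members were counted only if they passed the filter of the mutant libraries, which a scarce gene could pass through 1 stage alone. The test also uses the mutant values given above, so these counts are not separate support for them. These counts include early wild-type replicate 2, without which edgeR gave 1603 genes at that p. Among the genes named, Top2a, Cryaa, Lamb1, Nav2, Usp37, Nnat, Nrtn, Mpnd, Pptc7, Metrnl and Ptgds had edgeR adjusted p = 0.0940 in this test, Gcat was at 0.0986, and the others except Isoc1 were above 0.1.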

How the data were processed

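Bulk RNA-seq of polyA-selected RNA from 12 libraries in 4 groups of 3 was deposited as raw counts per gene, and as FPKM values used only for gene lengths. Per the submitters' processing notes, the authors used fastp, HISAT2, HTSeq and DESeq2 with mouse build GRCm39 to make the counts and the FPKM values. Neither the labels nor the files state the annotation, the strand setting or any batch adjustment. The 6 mutant libraries were fitted with edgeR 4.0.16 (quasi-likelihood test, TMM scaling, filter by expression, Benjamini-Hochberg adjustment at 0.05) in R 4.3.3, after the method was tested on simulated data. DESeq2 1.42.0 and limma 3.58.1 (voom with sample weights) were alternatives, beside other scalings, filters, a replicate block and leaving out each library. Named genes were the 12 of smallest p per direction whose stages did not overlap and whose higher stage had a mean of 5 CPM or more, filled in this way because no gene passed the threshold, up to 4 members of smallest p per gene list, and a fixed panel. The members and the 53 lists were chosen with earlier results of these data known. Same-numbered early and late libraries had deviation correlations of -0.10 to 0.05, so numbers were not taken to pair animals. Replicates differed by 50.1 to 114 times sampling noise. Nothing states how separate the replicates were beyond the label of biological replicates, and p-values measure the spread between them. A few genes that the rule names are not reported here.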

Additional observations from a re-analysis of the deposited data

Results flagged for a closer look

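Isoc1 was the 1 gene whose stage difference differed between genotypes in the test over all 12 libraries. Its log2 difference was -1.69 ± 0.26 (SE) in mutants and 1.57 ± 0.39 in wild type, and the difference between them was -3.33 ± 0.49 (edgeR adjusted p = 0.0304). Without early wild-type replicate 2, a library of lower depth than the others, edgeR called no gene in that test and gave 1603 at an unadjusted p under 0.05. Leaving out any 1 late mutant library, early mutant replicate 2 or 3, or early wild-type replicate 3 also left none. So did leaving out late wild-type replicate 2 or 3, DESeq2 size factors, and scaling within length bins. For Isoc1, mutant libraries were at 140 to 286 CPM early and 65.3 to 77.8 CPM late, and wild-type means were 83.9 ± 4.5 early and 249 ± 115 CPM late (SD, n = 3).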

How the results depend on the processing

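The count of 0 genes past edgeR's threshold in mutants became 247 without a low-count filter, 637 with DESeq2, 173 with limma-voom and 4 with scaling within abundance bins, and 0 to 12 when a library was left out. It was 0 under the replicate block too, with 1763 genes at an unadjusted p under 0.05 against 2232. In wild type the count of 0 became 30 without the filter and 1 with the replicate block, and 0 to 1 when a library was left out. For the difference between genotypes, the count of 1 became 0 with DESeq2 size factors and with scaling within length bins, 297 without the filter, 327 with DESeq2 and 68 with limma-voom, was 1 with the replicate block, a gene of the other direction than Isoc1, and ran from 0 to 199 when a library was left out, with 199 without late wild-type replicate 1, 28 without early wild-type replicate 1 and 0 without early wild-type replicate 2.

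Of 121 genes named, 110 kept their sign throughout and 11 did not. With scaling within 10 bins of abundance the log2 difference was 0.142 for Col8a2, 0.0808 for Slc4a11, 0.104 for Hspa5, 0.116 for Ddit3, 0.054 for Hmox1, 0.061 for Fn1 and 0.093 for Cd74. With scaling within 10 bins of gene length the log2 difference was 0.0805 for Hmox1 and 0.0499 for Cd74. With at least 5 CPM asked in 3 libraries the log2 difference was 0.0412 for Col8a2, 0.000371 for Slc4a11, 0.0176 for Hspa5, 0.0251 for Ddit3, 0.0347 for Hmox1 and 0.00298 for Cd74. With limma-voom the log2 difference was 0.153 for Cd74. With the replicate block the log2 difference was 0.0497 for Cd74. When a library was left out, the values spanned 0 for Col8a2 (-0.212 to 0.0193), Col8a1 (-0.462 to 0.0933), Slc4a11 (-0.328 to 0.0507), Hspa5 (-0.177 to 0.0358), Ddit3 (-0.19 to 0.0504), Cdkn1a (-0.228 to 0.848), Hmox1 (-0.18 to 0.118), Col1a1 (-0.0415 to 0.468), Cd74 (-0.376 to 0.425) and C1qa (-0.319 to 1.17). The cause was not tested.

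Depth limits scarce genes: 3 counts are 0.0761 to 0.0862 CPM in early mutant libraries and 0.1 to 0.108 CPM in late ones, and levels near these rest on few reads. Without a batch holding both stages, no within-batch value exists.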
